A study of Mus musculus with 6 samples.

Results

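The 10 genes reported here encode transcription factors tied to the naive, memory or effector fate of CD8 T cells: Tcf7, Lef1, Bach2, Satb1 and Foxo1, the inhibitors Id2 and Id3, and Tbx21, Eomes and Zeb2. They were picked by symbol from the 32227 genes counted in each library, and all 10 were found. The study sequenced single CD8 T cells of adult C57BL/6 mice (older than 8 weeks) with floxed Pdcd1, either without Cre (labelled Pdcd1fl/fl) or with the E8I Cd8a-cre transgene (labelled Pdcd1 cKO). Cells came from thymus, from spleen, and from B16-OVA tumors pooled from 3 mice per label on day 12 after injection. Each of the 6 groups had 1 library, so there were no replicates: the 95% intervals given here cover counting error only, and a difference of label or tissue cannot be told apart from a difference between mice or between libraries. In every pair of values the library labelled Pdcd1fl/fl comes first and the library labelled Pdcd1 cKO second.

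Of 1067 and 2674 thymic, 6929 and 4963 splenic and 457 and 561 tumor barcodes, 1067 and 2635, 1478 and 4928, and 456 and 561 passed the filters. CD8-RNA cells, with at least 1 UMI of Cd8a or Cd8b1, numbered 589 and 1753, 863 and 3885, and 344 and 512. By tissue these cells held 3654928 and 12663092 UMIs (thymus), 1380788 and 7324233 (spleen) and 6667609 and 7075966 (tumor), with medians per cell of 4353 and 5486, 1374 and 1686, and 13497 and 9580. The splenic libraries shared 2 barcodes, the only ones found in more than 1 library.

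Pdcd1, the gene the study targeted, went against the labels in thymus and spleen. CD8-RNA cells held 9 and 116 Pdcd1 UMIs in the thymus (2.46 and 9.16 CPM, or UMIs per 1000000 UMIs of the pool), 1 and 89 in the spleen (0.724 and 12.2 CPM), and 702 and 799 in the tumor (105 and 113 CPM). The log2 ratio of the library labelled Pdcd1 cKO over the one labelled Pdcd1fl/fl was 1.90 (interval 0.92 to 3.06) in the thymus, 4.07 (1.55 to 9.39) in the spleen and 0.10 (-0.05 to 0.25) in the tumor. In the T-majority tumor cells described in the next paragraph it was -0.29 (-0.44 to -0.14), from 188 and 154 CPM, so there Pdcd1 was lower in the library labelled Pdcd1 cKO. A count summed over the whole gene also takes in transcripts that lack the floxed exons, so it cannot tell whether the deletion took place. The study itself reports the loss of PD-1 protein in CD8 T cells of this genotype by flow cytometry, which these counts do not measure. It also reports more EOMES and T-bet protein and less TCF-1 in gated single-positive thymic CD8 cells of that genotype. Eomes, Tbx21 and Tcf7 RNA had those directions over all thymic CD8-RNA cells as labelled. In resting Dntt-unread thymic cells, also described in the next paragraph, Tcf7 stood apart at 252.6 and 173.5 CPM. There Eomes, at 29.1 and 41.5 CPM, and Tbx21, at 9.09 and 9.47 CPM, had overlapping intervals. Not all the study's measures had more EOMES and T-bet and less TCF-1. In effector-like splenic cells it reports more EOMES but less TCF-1 and T-bet. Over all splenic CD8-RNA cells, a wider set measured as RNA, Tbx21 stood at 18.1 and 38.6 CPM here, and Tcf7 at 141 and 155 CPM. In its own splenic RNA data the study reports a cluster enriched for Tbx21 and Eomes. In relatively stem-like thymic clusters it reports raised Lef1 and Tcf7 RNA without PD-1. It reports more TCF-1-positive thymic cells among those unlabelled by injected antibody, but fewer among non-recirculating ones. An exchange of labels would turn the sign of every label ratio and was not tested, and the libraries are named here by their labels.

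The CD8-RNA cells of a library were not all alike in other marker genes. All 8 genes of a CD8 T cell list were read in each library, at a summed 6137 and 5974 (thymus), 4904 and 6086 (spleen) and 3501 and 5195 CPM (tumor). A melanoma list of 6 genes summed to 7065 CPM (top gene Dct, 2609.9) and 4017 CPM (top gene Pmel, 1410.3) in the tumor, against 5.07 to 6.96 CPM elsewhere. Tumor values are therefore also given for T-majority cells, those with more UMIs of the CD8 T cell list than of the melanoma, macrophage and dendritic lists together: 274 of 344 and 456 of 512 cells, with 0 and 2 cells near an even split. In the thymus the immature thymocyte list summed to 726 and 512 CPM (top gene Dntt, 423 and 278), and Dntt was read in 59.3% and 45.5% of CD8-RNA cells. Thymic values are therefore also given for the 147 and 735 cells with no Dntt UMI and few UMIs of cycling genes, called resting Dntt-unread.

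Tcf7 and Lef1 are HMG-box partners that keep T cells naive or memory-like, and Bach2, Satb1 and Foxo1 support the same quiescent program. Id2 and Id3 restrain E proteins, Id3 on the memory side and Id2 on the effector side. Tbx21 and Eomes drive effector and memory genes as related T-box factors, and Zeb2 acts with Tbx21 in terminal effector cells.

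**Figure D1:**
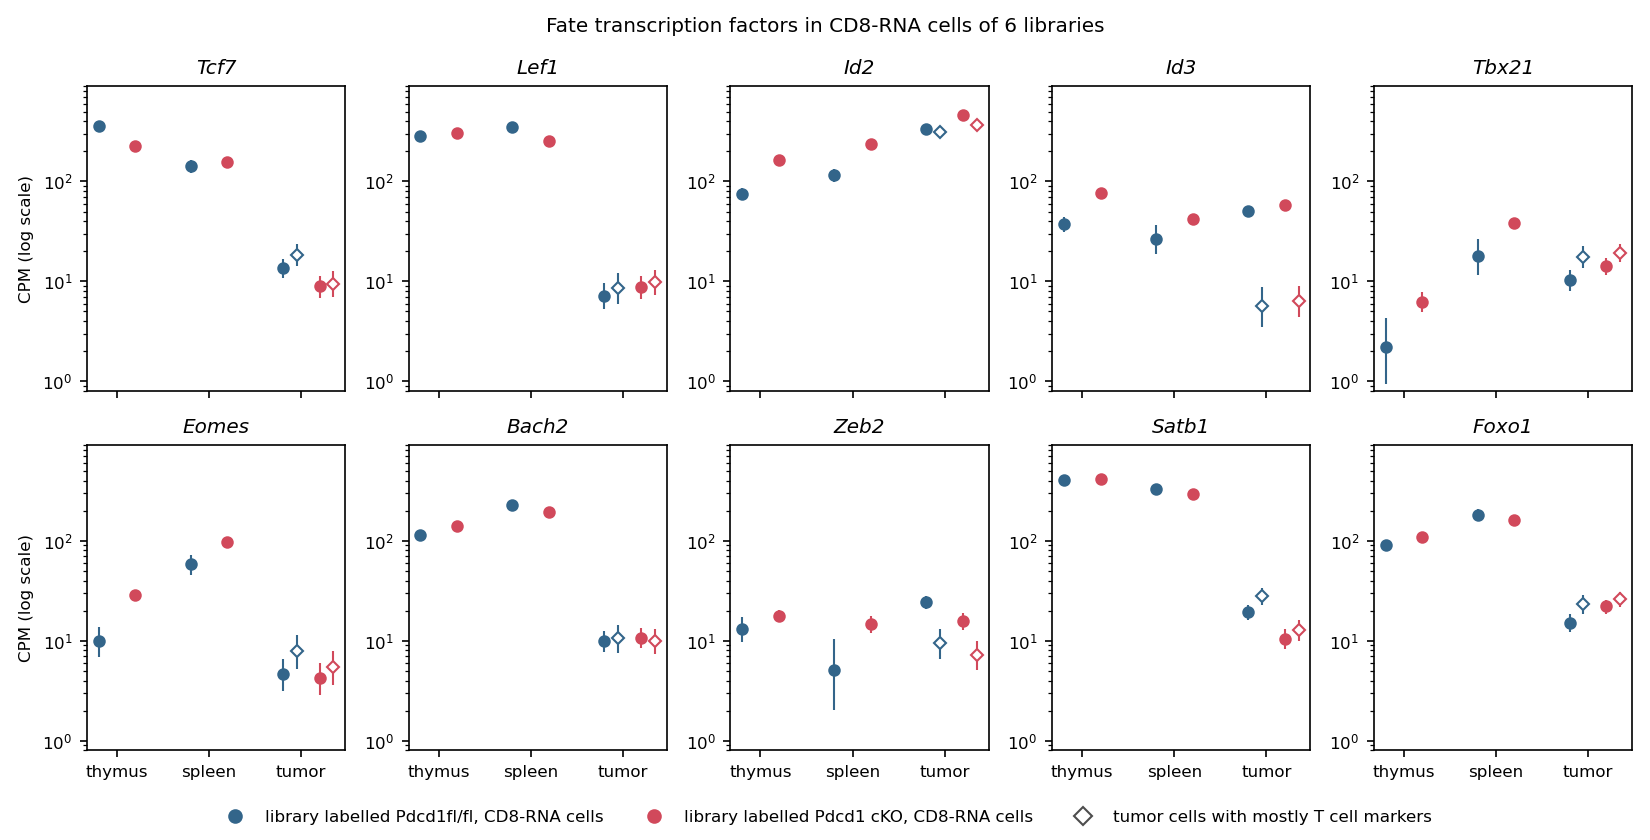
Levels of the 10 factors in CD8-RNA cells of the 6 libraries, with 95% counting intervals and tumor T-majority cells as open diamonds. Lef1 ran from 348 CPM in the spleen labelled Pdcd1fl/fl to 7.20 CPM in the tumor of the same label, while Id2 rose to 334 and 457 CPM in the tumor.

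Tcf7 stood at 362 and 226 CPM in the thymus (1324 and 2858 UMIs), 141 and 155 CPM in the spleen (195 and 1134) and 13.5 and 8.90 CPM in the tumor (90 and 63). It was highest in the thymic library labelled Pdcd1fl/fl, lower in the other thymic library, lower again in the spleen, where the intervals of the labels overlapped, and lowest in the tumor, where they overlapped too. Lef1, its partner, stood at 286 and 302 CPM in the thymus (1045 and 3826 UMIs), 348 and 254 in the spleen (480 and 1863) and 7.20 and 8.76 in the tumor (48 and 62). Its highest library was the spleen labelled Pdcd1fl/fl, the thymic libraries overlapped each other, and the tumor libraries overlapped each other far below all the rest.

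Satb1, a chromatin organizer, stood at 405 and 410.2 CPM in the thymus (1479 and 5194 UMIs), 330.2 and 292 in the spleen (456 and 2142) and 19.3 and 10.5 in the tumor (129 and 74). The labels overlapped in thymus and in spleen and stood apart in the tumor. Bach2, a repressor of effector genes, stood at 114 and 142 CPM in the thymus (418 and 1793 UMIs), 230.3 and 193 in the spleen (318 and 1417) and 9.90 and 10.7 in the tumor (66 and 76). Foxo1, which holds cells in quiescence, followed the same order of tissues: 90.0 and 109 CPM (329 and 1380 UMIs), 182 and 159.7 (251 and 1170), then 15.1 and 22.0 (101 and 156). For both genes spleen was highest and tumor lowest. Intervals of the labels overlapped for Foxo1 in the spleen and for Bach2 in the tumor.

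Id2 stood at 75.5 and 165 CPM in the thymus (276 and 2094 UMIs), 115 and 235 in the spleen (159 and 1724) and 334 and 457 in the tumor (2230 and 3235). No interval of Id2 overlapped another: the order from the top was tumor, tumor, spleen labelled Pdcd1 cKO, thymus labelled Pdcd1 cKO, spleen labelled Pdcd1fl/fl, thymus labelled Pdcd1fl/fl. Id3 stood at 37.5 and 76.2 CPM in the thymus (137 and 965 UMIs), 26.8 and 42.3 in the spleen (37 and 310) and 50.4 and 58.1 in the tumor (336 and 411). The thymic library labelled Pdcd1 cKO was highest for Id3, and below it each library overlapped the next.

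Tbx21 was read in few UMIs: 8 and 79 in the thymus (2.19 and 6.24 CPM), 25 and 283 in the spleen (18.1 and 38.6 CPM) and 69 and 100 in the tumor (10.3 and 14.1 CPM). The spleen labelled Pdcd1 cKO was highest, the other spleen overlapped the tumor of the label Pdcd1 cKO, and the thymic libraries were lowest and stood apart. Eomes stood at 9.85 and 28.7 CPM in the thymus (36 and 364 UMIs), 57.9 and 96.8 in the spleen (80 and 709) and 4.65 and 4.24 in the tumor (31 and 30). Each library of Eomes stood apart from the next except the tumor libraries, which overlapped. Zeb2 stood at 13.1 and 17.8 CPM in the thymus (48 and 226 UMIs), 5.07 and 14.6 in the spleen (7 and 107) and 24.1 and 15.7 in the tumor (161 and 111). Only the highest, the tumor labelled Pdcd1fl/fl, stood apart from its neighbour, though the lowest, the spleen labelled Pdcd1fl/fl, rested on 7 UMIs.

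Between tumor and spleen, 6 members fell 2-fold or more under both labels: Tcf7, Lef1, Eomes, Bach2, Satb1 and Foxo1, of 9 members with at least 100 UMIs under each label (against 23.5% of all 6213 genes past it that were lower by as much). Tbx21, under that filter, had -0.81 (-1.49 to -0.08) and -1.45 (-1.79 to -1.12). Tcf7, Lef1, Eomes and Bach2 had under 100 tumor UMIs under both labels and Satb1 under the second, so they needed their splenic UMIs to pass. Lef1 had the lowest log2 ratios, -5.59 (-6.05 to -5.16) and -4.86 (-5.25 to -4.49), and the least low of the 6 were Tcf7 under the label Pdcd1fl/fl, -3.39 (-3.76 to -3.02), and Foxo1 under the label Pdcd1 cKO, -2.86 (-3.11 to -2.61). Foxo1 gave -3.59 under the first label and Tcf7 -4.12 under the second, Bach2 -4.54 and -4.17, Satb1 -4.09 and -4.81, and Eomes -3.64 and -4.51. Id2 rose, by 1.54 (1.31 to 1.78) and 0.96 (0.87 to 1.04). Scaling by the median of ratios, the stricter cell filter and leaving out cycling cells each took Id2 past 2-fold under both labels. Eomes was no longer counted under the last 2 of these, where Cd8b1 or 2 CD8 UMIs were required, or without tumor cells carrying 3 or more melanoma or macrophage UMIs. Its ratios stayed past 2-fold there, and it left the count through the filter on UMIs.

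In T-majority tumor cells the same 6 members were 2-fold or more lower than in spleen, of 7 past the filter (against 29.0% of all 3979 genes past it). All but Foxo1 under the second label and Satb1 under the first had under 100 UMIs in these cells and passed with their splenic UMIs. The log2 ratios were -2.94 and -4.02 for Tcf7, -5.32 and -4.68 for Lef1, -2.88 and -4.15 for Eomes, -4.44 and -4.29 for Bach2, -3.56 and -4.51 for Satb1, and -2.98 and -2.61 for Foxo1. Id2, the seventh, kept ratios of 1.44 (1.20 to 1.69) and 0.65 (0.56 to 0.75). Tbx21 had -0.04 (-0.72 to 0.69) and -0.99 (-1.34 to -0.66). Id3 turned direction: its ratio was 0.91 (0.42 to 1.44) and 0.46 (0.24 to 0.67) over all tumor CD8-RNA cells, and -2.23 (-3.08 to -1.42) and -2.72 (-3.29 to -2.20) in T-majority cells, from 21 and 33 UMIs. Zeb2 moved from 2.25 (1.18 to 3.59) and 0.10 (-0.29 to 0.50) to 0.91 (-0.29 to 2.32) and -1.02 (-1.60 to -0.47).

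The tumor UMIs of Id3 and Zeb2 lay mostly in the other CD8-RNA cells. Those 70 and 56 cells, with medians of 39779 and 30243.5 UMIs per cell against 11055.5 and 9183.5 in T-majority cells, held 315 of 336 and 378 of 411 Id3 UMIs, and 126 of 161 and 74 of 111 Zeb2 UMIs. For Tcf7 they held 22 of 90 and 14 of 63. Over all passing tumor cells, those with a melanoma majority (142 and 58) showed Id3 at 107 and 232 CPM against 5.70 and 6.41 CPM in T-majority cells. Cells with a macrophage or dendritic majority (27 and 35) showed the highest Zeb2, 134 and 170 CPM. Id2 was high in melanoma-majority cells too, 362 and 617 CPM against 313 and 370.4 CPM in T-majority cells.

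The low levels in T-majority cells were set against those in melanoma-majority cells. Bach2 stood at 10.6 (7.53 to 14.5) and 9.91 (7.38 to 13.0) CPM against 8.70 (6.37 to 11.6) and 9.19 (5.69 to 14.0) CPM, with overlapping intervals. Tcf7 stood at 18.5 (14.3 to 23.4) against 5.68 (3.83 to 8.10) CPM under the label Pdcd1fl/fl, apart, and at 9.52 (7.04 to 12.6) against 7.44 (4.33 to 11.9) CPM under the other label, overlapping. Satb1 and Foxo1 stood apart under both labels: Satb1 at 28.0 and 12.8 against 8.32 and 2.19 CPM, and Foxo1 at 23.1 and 26.2 CPM against intervals of 4.93 to 9.65 and 5.00 to 13.0 CPM. Lef1 stood at 8.69 and 9.91 against 5.11 and 3.94 CPM, with overlapping intervals. Eomes stood apart under both labels, at 7.87 and 5.44 against 0.568 and 0.437 CPM, the latter from 3 UMIs and 1 UMI. Tbx21 separated the cells: 65 and 100 UMIs in T-majority cells against 4 and 0 in melanoma-majority cells.

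**Figure D2:**
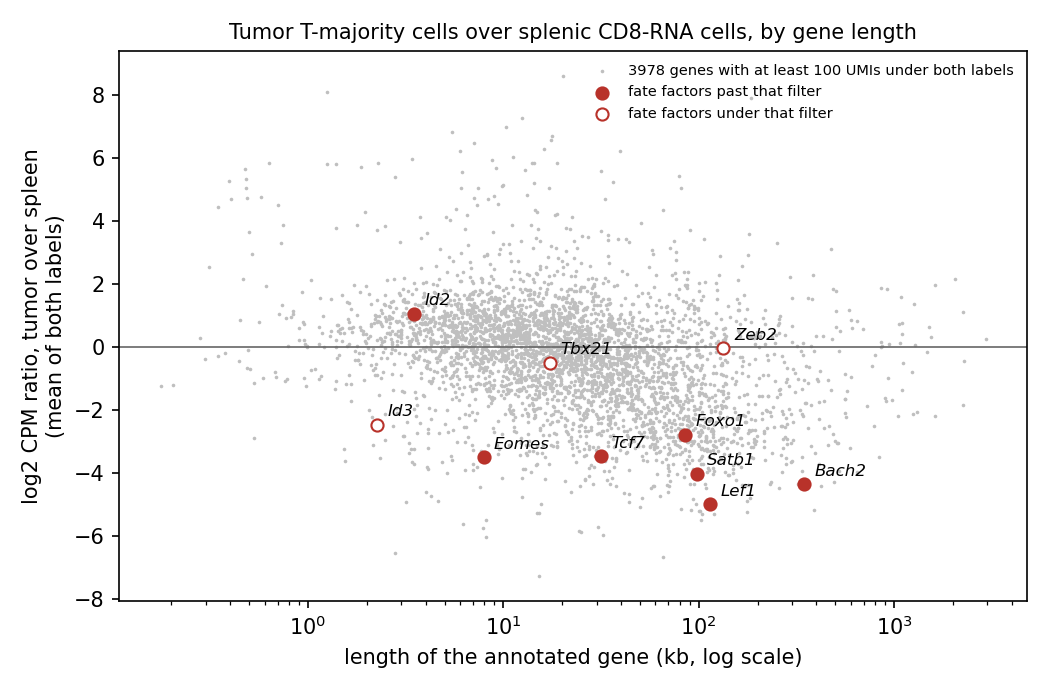
Log2 ratio of T-majority tumor cells over splenic CD8-RNA cells, mean of both labels, against gene length. Of genes over 100 kb, 58.5% were 2-fold or more lower under both labels, against 11.1% of genes up to 5 kb.

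The ratio of tumor to spleen moved with gene length over all genes. In T-majority cells the share of genes 2-fold or more lower under both labels was 11.1% of 486 genes up to 5 kb, 16.0% of 1434 up to 20 kb, 29.1% of 1035 up to 50 kb, 52.7% of 514 up to 100 kb and 58.5% of 509 above. The spleen over thymus comparison had no such climb, with 10.1%, 10.9%, 10.5%, 6.88% and 7.56%. Malat1, a nuclear RNA, stood at 1225 and 1509 CPM in thymus, 1431 and 3121 in spleen and 89.5 and 54.8 in tumor, and Neat1 at 19.7 and 35.7, 55.0 and 59.8, and 4.35 and 9.61 CPM. What moved the tumor ratios with gene length was not tested.

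Several of the 6 members are long, so each was placed among genes of its own length class. Lef1 (114 kb) had 7 of 509 genes with a lower mean ratio in T-majority cells, Bach2 (347 kb) 19 of 509, Satb1 (97.5 kb) 21 of 514, Tcf7 (31.5 kb) 34 of 1035 and Eomes (7.92 kb) 25 of 1434. Foxo1 (84.9 kb) was less extreme, with 101 of 514 genes (19.6%) lower. Id2 (3.49 kb) had 372 of 486 genes lower than itself, so 76.5% of short genes rose less or fell.

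Between spleen and thymus, Eomes alone of 8 members past the filter was 2-fold or more higher under both labels (against 4.03% of all 5784 genes past it), with 2.56 (1.97 to 3.17) and 1.75 (1.57 to 1.94). Under the label Pdcd1fl/fl it had 80 splenic and 36 thymic UMIs, so it passed the filter there only with the spleen, where it was high. Tbx21, under the filter with 25 against 8 UMIs in the pair labelled Pdcd1fl/fl, gave 3.05 (1.85 to 4.41) and 2.63 (2.27 to 3.01), and Zeb2, also under it, -1.37 (-2.76 to -0.22) and -0.29 (-0.63 to 0.05). Tcf7 was lower in spleen, -1.36 (-1.58 to -1.14) and -0.54 (-0.64 to -0.44). Bach2 and Foxo1 were each 1.01 higher under the label Pdcd1fl/fl and 0.45 and 0.55 higher under the label Pdcd1 cKO. Id2 rose by 0.61 and 0.51, Id3 had -0.48 and -0.85, and Satb1 -0.29 and -0.49. Under the label Pdcd1fl/fl median-of-ratios scaling, which raised ratios there by 0.43, and the stricter cell filter each turned Satb1 to a positive ratio. Lef1 had opposite directions, 0.28 (0.12 to 0.44) and -0.25 (-0.33 to -0.17), and the first turned negative without cycling cells or without cells with a Dntt UMI.

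Against resting Dntt-unread thymic cells, 0 of 6 members past the filter differed 2-fold under both labels (against 2.33% of all 2405 genes past it, in either direction). Under the label Pdcd1fl/fl 3 members turned direction: Bach2 to -0.12 (-0.42 to 0.18), Lef1 to -0.53 (-0.75 to -0.31) and Id2 to -0.47 (-0.86 to -0.08), the last 2 with intervals clear of 0 before and after. Under the label Pdcd1 cKO Bach2, -0.08 (-0.21 to 0.05), and Id2, -0.03 (-0.15 to 0.08), also fell below 0, with intervals that held it. Eomes, under the filter there, gave 0.99 (0.21 to 1.87) and 1.22 (0.98 to 1.48), and Tbx21 0.99 (-0.42 to 2.74) and 2.03 (1.53 to 2.56). Lef1 was then lower in spleen under the label Pdcd1 cKO as well, -0.63 (-0.73 to -0.54), and Satb1 was lower under both, -0.86 and -0.83. The count of 1 for Eomes also went to 0 under the stricter cell filter, under both CD8-RNA rules that need Cd8b1 or 2 UMIs, and without cycling cells. In these 4 its ratios stayed past 2-fold under both labels while its UMIs fell under the filter. The count became 2, with Tbx21, at a filter of 20 UMIs or none.

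**Figure D3:**
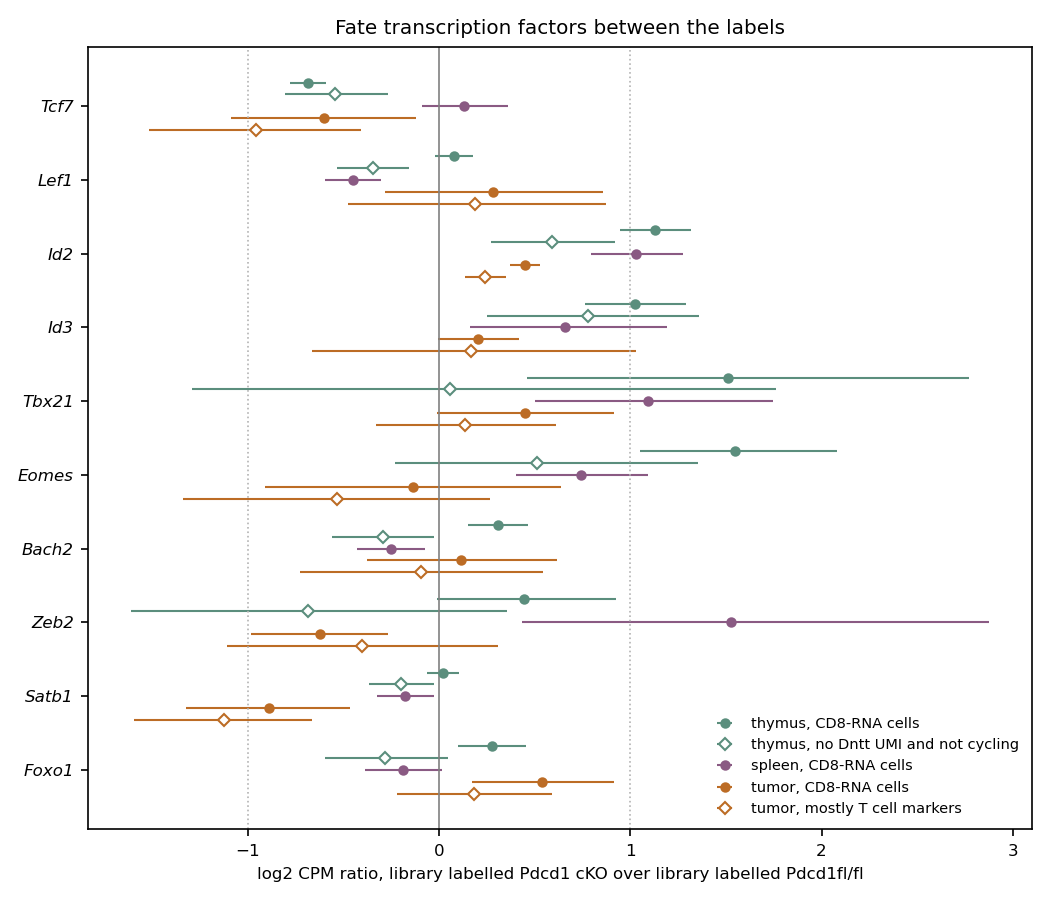
Log2 ratio of the library labelled Pdcd1 cKO over the one labelled Pdcd1fl/fl for each factor, with 95% intervals; open symbols show resting Dntt-unread thymic cells and T-majority tumor cells. In the thymus Id2 moved from 1.13 over all CD8-RNA cells to 0.59 in resting Dntt-unread cells.

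Between the thymic labels, Id2, Id3 and Eomes were 2-fold or more higher in the library labelled Pdcd1 cKO, of 9 members past the filter (against 2.56% of all 9154 genes past it that were higher by as much). The log2 ratios were 1.13 (0.95 to 1.32), 1.02 (0.76 to 1.29) and 1.55 (1.05 to 2.08). Eomes, with 36 UMIs in the other library, passed the filter only through the library where it was high. Tbx21, under the filter with 79 against 8 UMIs, gave 1.51 (0.46 to 2.77). Tcf7 was the only member lower with an interval below 0, at -0.68 (-0.78 to -0.59). Bach2 rose by 0.31 (0.15 to 0.47) and Foxo1 by 0.28 (0.10 to 0.45), while intervals of Lef1 (0.08), Satb1 (0.02) and Zeb2 (0.44) held 0. The cycling list summed to 1308 and 719 CPM and the immature list to 726 and 512 CPM in these pools, so the mix of cells moved with the label.

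In resting Dntt-unread thymic cells none of the 3 stayed past 2-fold. There 0 of 8 members past the filter differed by as much (against 5.67% of all genes past it, in either direction). Id2 had 0.59 (0.27 to 0.92), Id3 0.78 (0.25 to 1.36) and Eomes 0.51 (-0.23 to 1.35), and Tbx21 fell to 0.06 (-1.29 to 1.76). Tcf7 still stood lower, at -0.54 (-0.81 to -0.27), and now Lef1 (-0.35, -0.53 to -0.16), Satb1 (-0.20, -0.37 to -0.03) and Bach2 (-0.29, -0.56 to -0.02) were lower as well, Bach2 having turned direction. Without cycling cells only Eomes counted, without cells with a Dntt UMI none did, and Id3 dropped out where a Cd8b1 UMI was required. In cycling cells Id3 kept 1.17 (0.84 to 1.52) and Id2 0.68 (0.42 to 0.94), and Eomes stood at 6.50 and 15.7 CPM (18 and 101 UMIs). Resting cells with a Dntt UMI numbered 75 and 395. They had Eomes at 5.97 and 43.7 CPM, the first from 2 UMIs, and Id2 at 98.4 and 249.6 CPM. Id3 stood at 59.7 and 58.8 CPM there, so the members did not all behave alike in the 3 kinds of cell.

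Between the splenic labels, Id2, Tbx21 and Zeb2 were 2-fold or more higher in the library labelled Pdcd1 cKO, of 10 members past the filter (against 6.05% of all 7087 genes past it that were higher by as much). The ratios were 1.03 (0.80 to 1.28), 1.09 (0.50 to 1.75) and 1.53 (0.43 to 2.88). Zeb2, with 107 UMIs against 7, and Tbx21, with 283 against 25, passed the filter only through that library. Eomes (0.74, 0.41 to 1.09) and Id3 (0.66, 0.16 to 1.19) rose less, Lef1 was lower by log2 -0.45 (-0.60 to -0.30), and Bach2 (-0.25) and Satb1 (-0.18) slightly so. Tcf7 (0.13) and Foxo1 (-0.19) had intervals holding 0. The B cell list summed to 181 and 1190.2 CPM (top gene Igkc, 897, in the second) and the granulocyte list to 0 and 76.7 CPM, with S100a8 and S100a9 at 0 in both. Without cells carrying 3 or more UMIs of either list only Id2 counted. Both other scalings left only Zeb2, both stricter CD8-RNA rules dropped Zeb2 through the filter on UMIs, and the stricter cell filter left Id2 and brought in Eomes. The filters had kept 1478 of 6929 and 4928 of 4963 splenic barcodes, so a far smaller part of the first library was compared. With every barcode kept Id2 fell under 2-fold.

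Between the tumor labels, 0 of 9 members past the filter differed 2-fold (against 9.94% of all 7764 genes past it, in either direction). Satb1 was lowest at -0.89 (-1.32 to -0.46), then Zeb2 at -0.62 (-0.98 to -0.26; -0.40, -1.11 to 0.31, in T-majority cells) and Tcf7 at -0.60 (-1.09 to -0.12). Foxo1 (0.54, 0.17 to 0.92) and Id2 (0.45, 0.37 to 0.53) were higher, and the intervals of Lef1 (0.28), Id3 (0.20), Tbx21 (0.45), Bach2 (0.12) and Eomes (-0.13, under the filter) held 0. In T-majority cells Satb1 reached -1.12 (-1.59 to -0.67), 1 of 5 members past the filter (against 1.74% of all 4897 genes past it that were lower by as much), from 103 against 66 UMIs, of which only the first, the higher, reached the filter alone. It also counted where 2 UMIs of Cd8a and Cd8b1 were required. Tcf7 moved to -0.96 (-1.52 to -0.40) and Id2 to 0.24 (0.14 to 0.35), while the interval of Foxo1 (0.18) came to hold 0.

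Cells without CD8 RNA gave label ratios in the same direction for Tcf7, Id2, Id3 and Eomes in the thymus, where their CD8 T cell list stood at 5710 and 5310 CPM. There Tcf7 had -0.60 (-0.72 to -0.49) from 1014 and 1583 UMIs, Id2 1.53 (1.25 to 1.83) from 113 and 774, Id3 0.85 from 60 and 256, and Eomes 2.12 (0.44 to 4.48) from 3 and 31. Zeb2 rose more than in CD8-RNA cells, by 1.71 (1.23 to 2.22) from 40 and 309 UMIs. Thymic Lef1, Bach2, Satb1 and Foxo1 held 496 and 1137, 143 and 501, 735 and 2093, and 141 and 538 UMIs in these cells, and Tbx21 5 and 16.

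In splenic cells without CD8 RNA the B cell list summed to 217 and 6048 CPM (top gene Igkc, 107 and 4355) and the dendritic list to 8.33 and 153 CPM, so markers of other cell types moved with the label there. The study had isolated its splenic CD8 T cells with a column-based kit for CD8a T cells. Id2 (97 and 356 UMIs) had a label ratio of 0.95 (0.62 to 1.29) and Tbx21 (4 and 48) 2.66 (1.21 to 4.59). Eomes, at 38 and 126 UMIs, had 0.80 (0.27 to 1.36). Tcf7 was read in 108 and 234 UMIs, Lef1 in 244 and 395, Bach2 in 190 and 341, Satb1 in 281 and 462, Foxo1 in 153 and 243, Id3 in 18 and 53 and Zeb2 in 12 and 39. The label intervals of these 7 held 0, that of Lef1 (-0.23, -0.47 to 0.00) barely. Tumor cells without CD8 RNA had a melanoma list of 13092 and 12177 CPM, and held 1025 and 424 UMIs of Id2, 265 and 170 of Id3 and 116 and 49 of Zeb2. They held 14 and 5 UMIs of Tcf7, 18 and 4 of Lef1, 22 and 7 of Bach2, 25 and 5 of Satb1, 29 and 17 of Foxo1, 2 and 1 of Tbx21 and 4 and 0 of Eomes.

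CD8-RNA cells were also set against cells without CD8 RNA of the same library, and 0 of 7 members past the filter in both thymic libraries differed 2-fold in both, against 1.15% of all genes past it. Eomes, under the filter with 36 against 3 UMIs in the first, had 3.17 and 2.59 (2.06 to 3.17). Bach2 had 1.13 and 0.87, Id3 0.77 and 0.95, Lef1 0.66 and 0.78, Id2 0.87 and 0.47, and Tbx21 0.26 (-1.53 to 2.22) and 1.34 (0.55 to 2.21). Zeb2 went the other way, -0.16 (-0.79 to 0.49) and -1.42 (-1.67 to -1.17), and Satb1 had 0.59 and 0.34 and Foxo1 0.80 and 0.39. Tcf7 hardly differed there, -0.03 and -0.11. In the spleen the ratios of Tcf7 were 0.14 and 0.08 and those of Lef1 0.26 and 0.04, close to even, while Tbx21 had 1.93 (0.39 to 3.91) and 0.36 (-0.08 to 0.84) and Zeb2 -1.49 (-3.08 to -0.03) and -0.74 (-1.28 to -0.17). In the tumor Tbx21 had 3.81 (1.90 to 6.89) and 3.58 (1.07 to 8.90), while Id3, -0.95 and -1.79, and Zeb2, -0.82 and -1.88, were lower in CD8-RNA cells.

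Thymic cells with a Dntt UMI, against those without, had more Tcf7 (log2 0.44 and 0.52) and less of most other members. Lef1 had -1.01 and -0.78, Id2 -1.53 and -0.89, Bach2 -1.57 and -0.97, Satb1 -0.75 and -0.62, Foxo1 -0.96 and -0.80, Id3 -0.31 and -0.33, and Eomes, with 36 UMIs in the first library, -2.31 and -1.20. Zeb2 (-0.62 and 0.48) had no shared direction, and 0 of 7 members past the filter reached 2-fold under both labels, against 8.39% of all genes past it. Between cycling and other thymic cells 2 of 7 members did, Id2 and Bach2, both lower in cycling cells, against 11.9% of all genes past the filter. The ratios there were Tcf7 0.54 and 0.68, Lef1 -0.79 and -0.78, Id2 -1.29 and -1.45, Bach2 -1.49 and -1.10. In cycling T-majority tumor cells Tcf7 was lower under the label Pdcd1fl/fl, -2.32 (-3.08 to -1.59), and not under the other, 0.65 (-0.51 to 2.05). Satb1 was lower under both, -1.92 and -1.03, and Lef1 had -1.72 (-2.81 to -0.62) under the first label and 0.11 (-0.92 to 1.27) under the other.

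**Figure D4:**
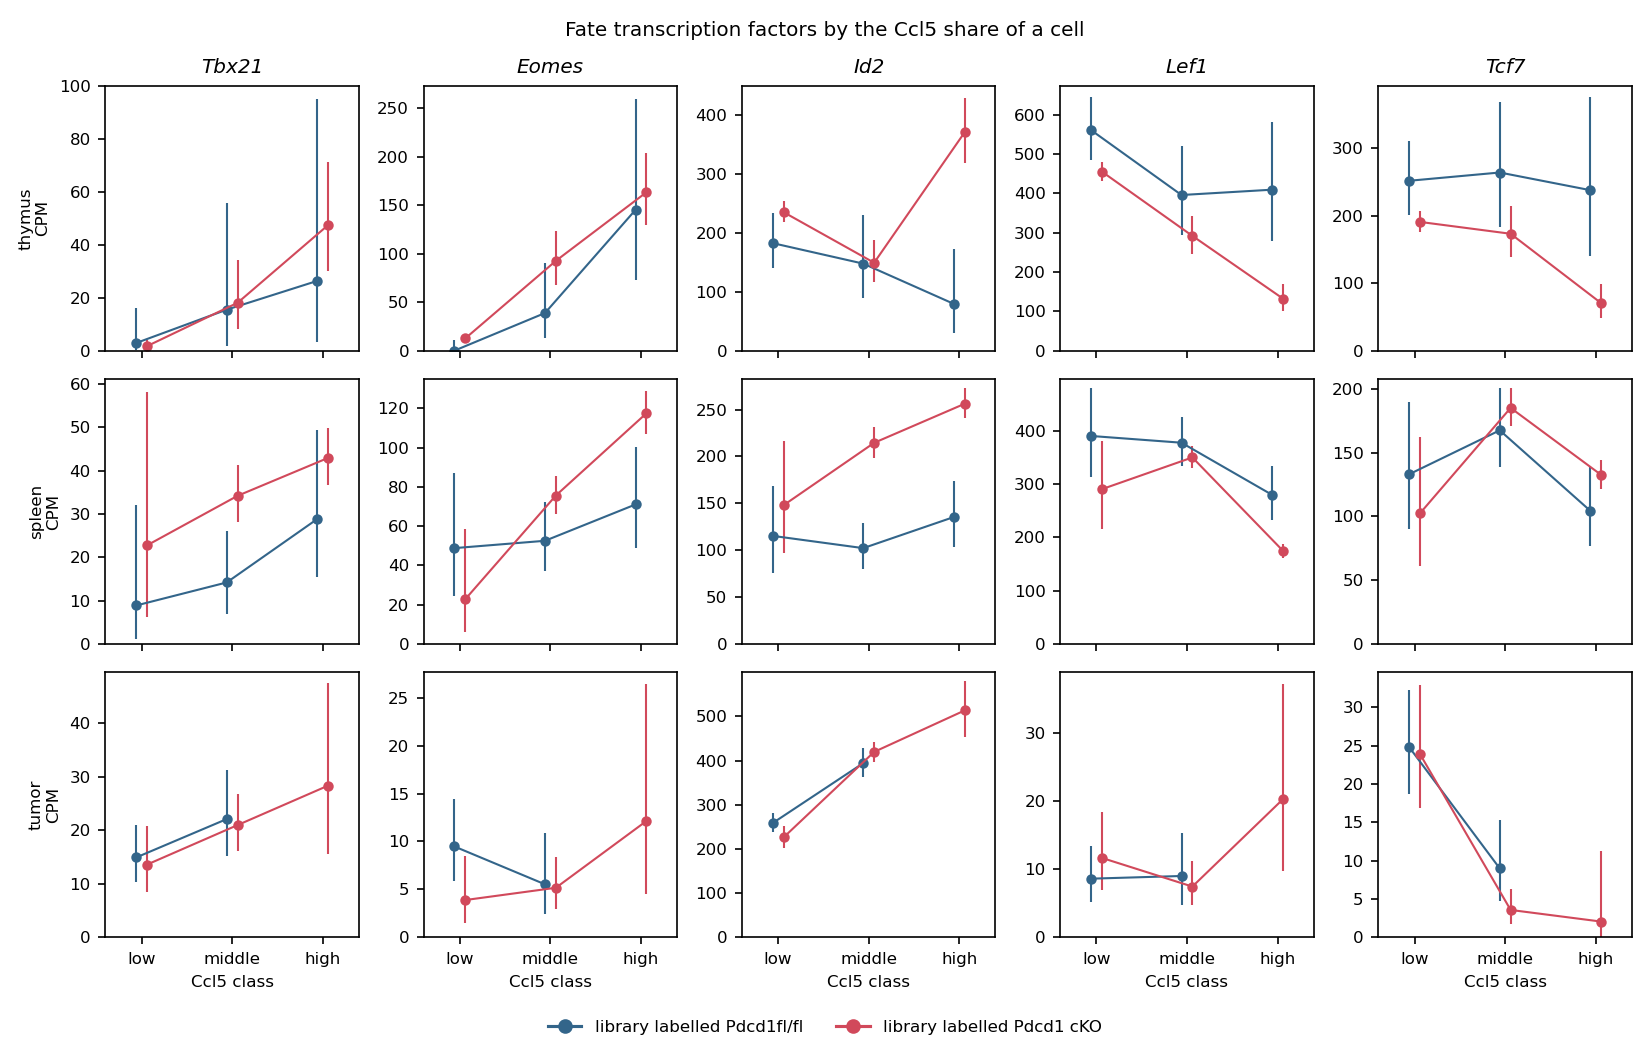
Levels of Tbx21, Eomes, Id2, Lef1 and Tcf7 in cells with a low, middle or high share of Ccl5 among their UMIs, in the 3 tissues; splenic cells with B cell markers carried Ccl5 too, at 2031 and 6016 CPM. In resting Dntt-unread thymic cells labelled Pdcd1 cKO, Eomes went from 12.6 to 92.6 to 163 CPM and Lef1 from 455 to 292 to 132 CPM.

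Members were then compared between cells by their share of Ccl5, an effector chemokine. Among resting Dntt-unread thymic cells labelled Pdcd1 cKO, 548, 86 and 101 had a low, middle and high Ccl5 share, and 83 and 5 of the 735 lay within 1 UMI of the lower and upper bound. Thymic CD8-RNA cells with a Dntt UMI fell in the low class in 90.5% and 83.8% of cases, and in the high class in 0.573% and 7.78%. From low to high, Tbx21 had a log2 ratio of 4.80 (3.37 to 6.55), Eomes 3.69 (3.11 to 4.30) and Zeb2 1.15 (0.00 to 2.19). Id2 had no steady change, going from 235 to 149 to 370.1 CPM. Lef1 had -1.78 (-2.17 to -1.42), Tcf7 -1.44 (-1.98 to -0.94), Satb1 -1.61 (-1.93 to -1.31) and Bach2 -1.11 (-1.55 to -0.70), while Foxo1 had -0.02 (-0.40 to 0.35). Id3 went from 116 to 28.9 CPM. The thymic library labelled Pdcd1fl/fl had 91, 34 and 22 such cells. Eomes rose there too, with 11 UMIs against 0, or log2 4.07 when the 0 was set to the floor of 3 counts. Bach2 (-1.17) and Satb1 (-0.97) were lower, but Tcf7 (-0.08, -0.90 to 0.66) and Lef1 (-0.45, -1.05 to 0.10) had intervals holding 0. Foxo1 was lower there, -1.39 (-2.89 to -0.20), and Id2 had -1.20 (-2.70 to 0.00), each from 6 UMIs in the high class.

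In the spleen a Ccl5 UMI was read in 86.9% and 97.8% of CD8-RNA cells (medians of 1374 and 1686 UMIs), at 3901 and 8071 CPM. Cells without CD8 RNA but with 3 or more B cell list UMIs, 6 and 129, carried one in 66.7% and 96.1% (medians of 1605.5 and 1452 UMIs), at 2031 and 6016 CPM, and 38.8% of the 129 fell in the high class. Of these 6 and 129 cells, 6 and 126 also had a UMI of the CD8 T cell list. Splenic Ccl5 was thus not told apart from background, and no result of members by splenic Ccl5 class is drawn here.

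In T-majority tumor cells Tcf7 was lower in the middle than in the low Ccl5 class, by log2 -1.47 (-2.47 to -0.58) and -2.75 (-3.87 to -1.75), and Id2 higher, by 0.61 (0.44 to 0.78) and 0.89 (0.72 to 1.07). Lef1 (0.06 and -0.65) and Eomes (-0.78 and 0.41) had intervals holding 0 under both labels. The high class held 2 cells under the label Pdcd1fl/fl and 61 under the other, where Id2 had 1.19 (0.95 to 1.42) over the low class and Tcf7 had 1 UMI. Melanoma-majority cells carried a Ccl5 UMI in 84.5% and 98.3% of cases at their greater depth, but at 82.9 and 294 CPM against 594 and 2029.5 in T-majority cells, and 97.2% and 93.1% of them fell in the low class.

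Cells with a UMI of Ccl5 but not Ccr7 were also set against cells with Ccr7 but not Ccl5. Of thymic CD8-RNA cells with a Dntt UMI, 32.1% and 57.7% also carried Ccl5, and whether that was background RNA was not tested. Of 6 members past the filter in both thymic libraries, only Bach2 passed 2-fold in both, lower at -2.16 (-2.78 to -1.60) and -1.60 (-1.82 to -1.38), against 1.05% of all genes past the filter. Lef1 had -0.89 and -1.43 there, and Tcf7 rose by 0.25 and 0.41. In resting Dntt-unread thymic cells Tcf7 turned to -1.12 (-2.16 to -0.21) and -0.90 (-1.36 to -0.46), and Lef1 (-1.19 and -1.37) and Satb1 (-1.17 and -1.14) became the 2 counted members, the only ones past the filter there, against 2.92% of all genes past it. With 2 or more Ccl5 UMIs against none, Ccr7 unread on both sides, the count was 0 of 3 past the filter, against 1.21% of all genes past it. In the tumor labelled Pdcd1fl/fl (139 against 33 cells) Tcf7 had -2.45 (-3.54 to -1.31), Satb1 -2.14 (-2.94 to -1.30) and Lef1 -2.41 (-3.66 to -1.09). The other tumor library had under 20 cells on the Ccr7 side.

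Tumor cells with Havcr2 but not Slamf6, against the reverse, could be compared only under the label Pdcd1fl/fl (141 against 29 cells). Id3 (4.54, 2.05 to 9.85, from 275 against 1 UMI) and Zeb2 (1.28, -0.11 to 3.18) were 2-fold or more higher of 3 members past the filter, where 39.9% of all genes past it differed 2-fold in either direction. Both passed the filter only through the Havcr2 side, where they were high. In T-majority cells (83 against 27) the count was 0 of 1 member past the filter (against 9.62% of all genes past it, in either direction). Id3 had 0.81 (-2.09 to 6.28) there. Tcf7, with too few UMIs for the filter, was lower in both, -3.00 (-3.90 to -2.08) and -3.11 (-4.38 to -1.94), as were Satb1, -2.41 and -1.89, and Eomes, -3.56 and -2.67.

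Shares of cells with a UMI followed depth, so each cell was also thinned to 1000 UMIs. Tcf7 was read in 30.1% and 17.5% of thymic CD8-RNA cells after thinning (74.2% and 61.6% before), 12.3% and 13.7% of splenic ones (17.7% and 23.1%), and 2.55% and 1.10% of T-majority tumor cells (17.2% and 6.14%). Melanoma-majority cells, with medians of 31889 and 35962.5 UMIs, gave 0% and 0% (16.2% and 24.1% before thinning). Whether melanoma cells make Tcf7 themselves was not tested. The upper bounds of these zeros, 2.56% and 6.16%, overlapped the T-majority intervals of 1.03% to 5.19% and 0.357% to 2.54%. Lef1 was read in 25.1% and 26.5%, 27.7% and 20.2%, and 0.365% and 1.10% after thinning (67.7% and 72.2%, 36.6% and 32.4%, and 9.85% and 8.77% before), against 0.704% and 0% (16.2% and 15.5%) in melanoma-majority cells. Id2 was read in 7.47% and 17.6%, 10.5% and 19.6%, and 23.4% and 31.6% (31.4% and 52.3%, 14.8% and 30.1%, and 84.7% and 89.7% before), against 27.5% and 39.7% (93.7% and 94.8%).

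Lists of related genes were counted beside the members. Of 30 other fate factors, 28 passed the filter in the thymic label comparison and 5 were 2-fold or more higher (Prdm1 highest at 2.00, Myb lowest at -0.61), with a median of 0.30 against 0.31 for the members and -0.18 for all genes. In the spleen 3 of 27 were higher (Maf 2.89, Myb -0.56), median 0.22 against 0.40 for members and 0.18 for all genes. In the tumor 1 of 23 was higher (Irf8 1.24) and 3 lower (Klf3 -1.58), median -0.10 against 0.20 and -0.14. In T-majority cells 0 of 19 were higher (Irf8 0.76) and 1 lower (Klf2 -2.03), median -0.03 against 0.14 and 0.08. Spleen over thymus, 2 of 23 were higher (Hopx 2.76) and 2 lower (Ikzf2 -3.15). Against resting Dntt-unread thymic cells 1 of 16 was higher (Hopx 1.55) and 1 lower (Tox -1.26). Tumor over spleen, 1 of 25 was higher (Irf8 3.56) and 16 lower (Klf2 -6.26), median -1.72 against -3.75 for members and -0.07 for all genes.

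Medians of all genes past the filter, for the next lists as for the last, were -0.18 between thymic labels, 0.18 between splenic labels, -0.14 between tumor labels (0.08 in T-majority cells), -0.25 for spleen over thymus and -0.07 for tumor over spleen. Of 15 effector genes, 13 passed the filter in the thymic label comparison, 7 higher (Gzmb 2.69) and 1 lower (Gzma -1.13), median 1.38. In the spleen 7 of 12 were higher (Ifng 4.45, lowest Klrd1 0.12), median 1.25, and in the tumor 8 of 12 (Gzma 2.67, lowest Cx3cr1 -0.59), median 1.20, or 5 of 12 in T-majority cells, median 0.70. Spleen over thymus, 6 of 7 were higher (Ccl4 3.50) and 1 lower (Gzma -3.68), median 2.28. Against resting Dntt-unread thymic cells only 2 of 6 were higher (Ccl4 2.01) and 0 lower, median 1.33, where all genes had a median of -0.02. Tumor over spleen, 2 of 12 were higher (Gzmb 5.33) and 3 lower (Gzmm -6.00), median -0.01.

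Of 13 naive and memory genes, 0 of 13 differed 2-fold in the thymus (Ccr7 0.97, Slamf6 -0.90, median 0.25) or the spleen (median 0.01), and 3 of 8 were lower in the tumor (Bcl2 -2.19), median -0.48. In T-majority tumor cells 2 of 5 were lower (Ccr7 -2.49), and the median turned to 0.37. Spleen over thymus, 4 of 11 were higher (Ly6c2 2.60) and 1 lower (Ccr9 -1.88), median 0.76. Against resting Dntt-unread thymic cells 0 of 8 differed 2-fold, median 0.14. Tumor over spleen, 8 of 10 were lower (Il7r -5.63), median -2.39. Of 8 exhaustion genes, 1 of 5 was higher in the thymus (Pdcd1 1.90, median 0.48), 1 of 4 in the spleen (Cd160 1.67, median 0.38) and 0 of 7 in the tumor (median 0.38, or 0.07 in T-majority cells). Spleen over thymus, 1 of 3 was lower (Havcr2 -2.19), median 0.40, or 0 of 1 against resting Dntt-unread thymic cells. In tumor over spleen 3 of 6 were higher (Pdcd1 5.20), median 1.68.

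Over 12 pools (each library's cells with and without CD8 RNA), the genes with the most similar levels were found by Pearson correlation of log2 CPM among 12932 genes. For Tcf7 they were Ankrd10 (r 0.990), Nsmce4a (0.989) and Stat5a (0.987); for Lef1, Xlr4c (0.994), Zeb1 (0.994) and Mbnl1 (0.991). Bach2 had Gm48228 (0.996), Pik3cd (0.995) and Cracr2a (0.995), Satb1 had Tmem108 (0.991), Atp1b1 (0.990) and Riok1 (0.990), and Foxo1 had Pik3cd (0.994), Dock2 (0.994) and Jak1 (0.991). Id2 had B2m (0.970), Dap (0.962) and B4galt5 (0.957), and those reported for Id3 were Rtp4 (0.959) and Oasl1 (0.941). Tbx21 had A430093F15Rik (0.943), Tspan32 (0.938) and Lpxn (0.934), Eomes had Gm33104 (0.987), Relb (0.985) and Pim2 (0.982), and Zeb2 had Cpne2 (0.917), Rufy3 (0.905) and Rap2b (0.900). Among members, Tcf7 and Satb1 had r 0.98, Tcf7 and Lef1 0.95, and Tcf7 and Id2 -0.87. The pools came from 3 tissues, and how far these values follow tissue was not tested.

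In the GRCm39 annotation Tcf7 lies on chromosome 11, 52143107 to 52174619, Lef1 on chromosome 3, 130903919 to 131018005, Bach2 on chromosome 4, 32238714 to 32586108, Satb1 on chromosome 17, 52043114 to 52140622, and Foxo1 on chromosome 3, 52175757 to 52260642. Id2 lies on chromosome 12, 25143798 to 25147282, and Id3 on chromosome 4, 135870808 to 135873066. Tbx21 lies on chromosome 11, 96988897 to 97006158, Eomes on chromosome 9, 118307280 to 118315200, and Zeb2 on chromosome 2, 44873644 to 45007464. Genes on the other strand overlap Tcf7 (A630014C17Rik), Lef1 (Lef1os1), Id2 (Gm36287), Eomes (Gm33460), Bach2 (Bach2os), Zeb2 (Zeb2os) and Foxo1 (Gm20402), and Bach2it1 lies within Bach2 on its own strand. Reads of these pairs cannot be told apart in counts without the strand and position of each read.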

How the data were processed

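Single-cell 3' libraries (PIPseq) of CD8 cells from thymus, spleen and B16-OVA tumor were read from deposited count matrices; the authors aligned reads to GRCm39 and deposited raw UMI counts per gene and barcode, later analysed by them in Seurat 4.3.0. Barcodes were kept with 500 or more genes, 1000 or more UMIs and no more than 20% mitochondrial UMIs, and CD8-RNA cells had at least 1 UMI of Cd8a or Cd8b1. Doublets were not called or removed, so cells holding RNA of 2 cell types stayed in. UMIs were pooled per library and given as CPM (UMIs per 1000000 UMIs of the pool) with exact Poisson 95% intervals. Ratios carry exact binomial intervals, and where a pool had no UMI of a gene the ratio used a floor of 3 counts for it. Genes with at least 100 UMIs over the compared pools were counted at 2-fold or more. Tissues were compared within labels and labels within tissues, and counts over both labels required the same direction. Pools under 20 cells were not compared. The pooling and intervals were tested on simulated data. CD8-RNA cells held between 1380788 (spleen labelled Pdcd1fl/fl) and 12663092 UMIs (thymus labelled Pdcd1 cKO).

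Members were the 10 listed symbols. The 15 lists used were the members, other fate factors, naive and memory genes, effector genes, exhaustion genes, and markers of CD8 T cells, immature thymocytes, gamma-delta and innate cells, B cells, macrophages, dendritic cells, granulocytes, melanoma, stroma and cycling cells. Members and lists were chosen with earlier results of these data known. In CD8-RNA cells the gamma-delta list (5 of 7 symbols found) summed to 159 and 108 CPM in the thymus (top gene Trdc, 149.9 and 99.8), the stroma list to 471 and 86.5 CPM in the tumor, the macrophage list to 463 and 719 CPM there (top gene Apoe, 398 and 283), and the dendritic list to 476 and 1650.1 CPM (top gene Cd74, 371 and 1299.6).

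Alternatives were no cell filter, a stricter filter (1000 genes, 2000 UMIs, 10% mitochondrial), Cd8b1 alone, 2 UMIs of Cd8a and Cd8b1, an added Cd3 UMI, totals without mitochondrial, ribosomal and Malat1 counts, median-of-ratios scaling, leaving out cycling cells (2 or more UMIs of the cycling list), thymic cells with a Dntt UMI, or tumor cells with 3 or more melanoma or macrophage UMIs, and gene filters of 20 UMIs or none. Added after the data were seen were T-majority tumor cells, resting Dntt-unread thymic cells, leaving out splenic cells with 3 or more B cell or granulocyte list UMIs, classes by Ccl5 share (at most 0.05%, up to 0.5%, above), the Ccl5 level in cells with other markers, and the comparison by gene length. Coordinates came from a GRCm39 annotation whose release was not stated to be the one the authors used. Median-of-ratios scaling shifted the log2 label ratios by 0.18 in the thymus, -0.18 in the spleen and 0.14 in the tumor, the spleen over thymus ratios by 0.43 and 0.03, and the tumor over spleen ratios by -0.12 and 0.54. A few results on single genes are not reported here. No paired analysis was possible because each group had 1 library. Python 3.11.15, numpy 2.4.6, scipy 1.17.1, pandas 2.3.3 and matplotlib 3.10.9 were used.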

Additional observations from a re-analysis of the deposited data

Results flagged for a closer look

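Bach2 was picked out because the intervals of its label ratio lay on opposite sides of 0 in 2 tissues: log2 0.31 in the thymus and -0.25 in the spleen. Zeb2 was picked out on the same ground, with 1.53 in the spleen, from 7 against 107 UMIs, and -0.62 in the tumor, where T-majority cells had -0.40 (-1.11 to 0.31). In each case the difference between the tissues was not tested. In resting Dntt-unread thymic cells Bach2 had -0.29, the same direction as in the spleen.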

How the results depend on the processing

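Of 69 counts under alternatives, 18 were labelled moved and 51 were not, a label that let small changes pass. Thymic label counts of 2 or 4 in place of 3, and splenic label counts of 2 in place of 3, were not labelled moved. Nor were tumor over spleen counts of 5 or 7 in place of 6, or equal counts of other members. Of 800 single values 546 were not labelled moved, 253 were, and 1 that was past 2-fold turned direction. Of any size 57 turned, 10 of them with both intervals clear of 0: Id3 in tumor over spleen (T-majority cells, and without cells of 3 or more melanoma or macrophage UMIs, both labels), Bach2 between thymic labels, and Lef1 (3 alternatives), Id2 and Satb1 in spleen over thymus under the label Pdcd1fl/fl. The thymic label count of 3 went to 1 (Eomes) without cycling cells and to 0 without cells with a Dntt UMI or in resting Dntt-unread cells. The splenic label count of 3 went to 1 (Zeb2) under both other scalings and to 1 (Id2) without cells of 3 or more B cell or granulocyte UMIs. The tumor label count of 0 went to 1 (Satb1) with 2 CD8 UMIs and in T-majority cells. The spleen over thymus count of 1 went to 0 under the stricter filter, Cd8b1 alone, 2 CD8 UMIs, without cycling cells, and against resting Dntt-unread cells, and to 2 (Tbx21, Eomes) at 20 UMIs or no filter. The Ccl5 against Ccr7 count of 1 went to 0 with 2 or more Ccl5 UMIs against none, Ccr7 unread on both sides, and to 2 (Lef1, Satb1) in resting Dntt-unread cells. The Havcr2 against Slamf6 count of 2 went to 0 in T-majority cells, where only 1 member passed the filter. Bach2 in spleen over thymus under the label Pdcd1fl/fl turned from 1.01 to -0.12 with resting Dntt-unread cells. The tumor over spleen count of 6 ran from 5 to 7.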
